A study of Mus musculus with 36 samples.

Results

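The 9 genes described here encode enzymes that act on steroids and sterols, and their methylation was measured in mouse liver. They are Hsd3b1, Hsd3b2, Hsd3b3, Hsd3b5, Hsd3b6, Hsd3b7, Cyp7b1, Srd5a1 and Hsd11b1, of 22380 protein-coding genes in the GENCODE vM1 annotation of the mm9 genome. Each gene was taken from 5 kb upstream of its annotated start to 1 kb past its end, and the CpGs in that interval were summed into fixed 500-bp windows. The 9 intervals held 2663 of the 18887127 autosomal CpGs, in 686 windows. Tests were run on the 514 of these windows that held 2 or more CpGs and were covered by 20 or more reads in each of the 24 animals.

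The enzymes of the Hsd3b family oxidise or reduce the hydroxyl or keto group at the third carbon of steroids. HSD3B1 is the main enzyme of adrenal and gonadal steroid synthesis, and HSD3B7 acts on sterols on the way to bile acids. HSD3B5 is a reductase of steroids in the liver, and Hsd3b5 is known as a gene that adult male mouse liver expresses far more than female liver. CYP7B1 hydroxylates oxysterols in the alternative route of bile acid synthesis, SRD5A1 reduces testosterone and other steroids, and HSD11B1 regenerates active glucocorticoid. The sex-dependent pattern of growth hormone secretion, read in hepatocytes by the factor STAT5, is a known regulator of many such genes. Methylation of cytosine in CpGs is often low at active promoters and enhancers.

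Whole-genome bisulfite sequencing was performed on livers of 24 mice in 8 groups of 3. The parents were C57BL/6N (B6) sires, B6 dams, C3H/HeN (C3) sires and C3 dams. The F1 offspring were B6C3F1 sons and daughters, born to a B6 dam and a C3 sire, and C3B6F1 sons and daughters, born to a C3 dam and a B6 sire. Mating took place when the parents were 10 weeks old, and litters were weaned at week 16 of the parents' age. All mice were killed at 20 weeks, so the dams had borne and nursed a litter while the daughters were virgin. Parents and offspring were members of the same families, and the tests treated the animals as independent. Whole liver was sequenced, so a change in the mixture of cells and a change within cells cannot be told apart.

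Each animal had 365740739 to 619888157 counts on autosomes, or 19.4 to 32.8 reads per CpG, and 75.05 to 77.53% of autosomal counts were methylated. The starts of 8 hepatocyte marker genes had a mean methylation of 22.2 to 35.7% over the 24 animals, and those of 7 Kupffer cell and leukocyte markers 77.6 to 84.5%. The means for 4 endothelial markers ranged from 45.7 to 54.1%, and those for 4 stellate and biliary markers from 26.4 to 33.5%. The hepatocyte list was higher in B6 sires (30.6 to 35.7%) than in B6 dams (25 to 29.8%). In C3 it was 23.7 to 27.8% in sires and 24.4 to 24.5% in dams. The Kupffer cell and leukocyte list was at 78.9 to 81.5% in B6 sires and 78.9 to 80.4% in B6 dams. It was higher in C3 parents, at 83 to 83.4% in sires and 81.8 to 83.6% in dams, without overlap between the strains. The part of the cell mixture in the differences below was not tested.

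Stretches of windows that passed the test between sires and dams are printed first, as 300 bases of mm9 each, on the minus strand, the strand of these genes. They show CpGs behind the values below. Some hold only part of their window's CpGs, 2 of 3 for the second of Hsd3b5, 8 of 10 for Srd5a1 and 5 of 7 for Hsd11b1. Capitals mark the CpGs measured here, and positions count from the gene's start. The first 2 belong to Hsd3b5, whose start differs between annotations. GENCODE vM1 places it at chr3:98434232. The RefSeq promoter matched mm9 exactly once, which puts the RefSeq start at chr3:98449457, 15225 bp further upstream and outside the interval set by GENCODE. The first stretch is shown because it lies just upstream of the RefSeq start (bases -364 to -65, chr3:98449522-98449821). The second is shown because its window held the largest difference between sires and dams (bases 1157 to 1456, chr3:98448001-98448300).
Hsd3b5 upstream: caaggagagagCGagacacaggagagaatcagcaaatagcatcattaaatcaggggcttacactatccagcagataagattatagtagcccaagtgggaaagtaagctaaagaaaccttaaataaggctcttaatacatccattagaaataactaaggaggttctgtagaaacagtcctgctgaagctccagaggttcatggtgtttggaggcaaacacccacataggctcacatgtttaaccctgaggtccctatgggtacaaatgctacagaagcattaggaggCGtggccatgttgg
Hsd3b5 downstream: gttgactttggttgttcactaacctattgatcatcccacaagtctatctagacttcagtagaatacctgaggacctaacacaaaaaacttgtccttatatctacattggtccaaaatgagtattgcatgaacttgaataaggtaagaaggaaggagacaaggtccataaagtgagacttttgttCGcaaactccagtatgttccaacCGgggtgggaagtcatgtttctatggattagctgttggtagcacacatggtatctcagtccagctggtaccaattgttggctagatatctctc

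The next stretches are in windows of Cyp7b1, Srd5a1 and Hsd11b1 that passed the test between sires and dams. They lie upstream of Cyp7b1 (chr3:18146501-18146800), in an intron of Cyp7b1 (chr3:18139201-18139500), in an intron of Srd5a1 (chr13:69734501-69734800) and in a GENCODE intron of Hsd11b1 (chr1:195077701-195078000).
Cyp7b1 upstream: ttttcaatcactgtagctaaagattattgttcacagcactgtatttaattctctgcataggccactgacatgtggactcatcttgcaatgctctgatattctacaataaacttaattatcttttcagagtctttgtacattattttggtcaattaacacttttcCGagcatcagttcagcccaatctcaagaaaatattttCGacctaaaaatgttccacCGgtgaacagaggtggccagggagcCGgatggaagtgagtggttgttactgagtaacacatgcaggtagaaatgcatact
Cyp7b1 intron: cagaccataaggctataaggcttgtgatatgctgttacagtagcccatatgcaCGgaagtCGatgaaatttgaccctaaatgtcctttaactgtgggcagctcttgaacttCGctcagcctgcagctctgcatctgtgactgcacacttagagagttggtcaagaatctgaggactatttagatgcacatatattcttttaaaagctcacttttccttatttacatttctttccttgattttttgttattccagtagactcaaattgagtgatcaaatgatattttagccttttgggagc
Srd5a1 intron: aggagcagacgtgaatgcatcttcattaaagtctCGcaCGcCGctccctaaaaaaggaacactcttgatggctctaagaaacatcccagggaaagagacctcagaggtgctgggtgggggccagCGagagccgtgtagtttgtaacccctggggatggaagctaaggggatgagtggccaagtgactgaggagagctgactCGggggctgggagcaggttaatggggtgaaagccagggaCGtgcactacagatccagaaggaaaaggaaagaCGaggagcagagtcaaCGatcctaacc
Hsd11b1 intron: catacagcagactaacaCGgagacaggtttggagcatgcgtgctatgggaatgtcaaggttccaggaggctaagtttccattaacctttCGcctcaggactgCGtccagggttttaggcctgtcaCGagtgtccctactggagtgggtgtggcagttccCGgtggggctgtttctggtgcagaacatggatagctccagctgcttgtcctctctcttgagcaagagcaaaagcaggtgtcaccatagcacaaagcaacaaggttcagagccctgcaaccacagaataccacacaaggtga

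These stretches were searched on both strands for TTCNNNGAA (STAT5), TGTTTAC (FOXA), AGGTCA (nuclear receptors) and CANNTG (E-box). Within the printed bases, matches to CANNTG were the only ones found. The whole windows of the second Hsd3b5 stretch and of the Hsd11b1 stretch each held 1 AGGTCA outside the printed bases. Among the 36 windows of the members that passed in any comparison, 7 held TTCNNNGAA, against 17.2% of all windows tested, and 3 held TGTTTAC, against 7.29%. Those with TTCNNNGAA were chr3:98449001 and chr3:98429501 of Hsd3b5, chr3:18006001, chr3:18010001 and chr3:18146001 of Cyp7b1, chr1:195053001 of Hsd11b1 and chr13:69740001 of Srd5a1. AGGTCA was in 7 of the 36 against 26.6%, and CANNTG in 33 against 93.6%. A match is only a run of letters and does not show that a factor binds there.

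Males were compared with females in 2 sets of animals that share none, the parents and the F1 offspring. Throughout, a difference is the first group minus the second in percentage points of methylation, and a window was called when limma gave a Benjamini-Hochberg adjusted p under 0.05 over all 3329122 windows tested and the difference was at least 20 points. Between sires and dams, 12 of the 514 member windows were called (2.33%), where 0.119% of all windows were called. Of these 12, 11 were lower in sires and 1 was higher, against 0.0868% and 0.0318% of all windows. Between sons and virgin daughters, 8 were called (1.56%), where 0.0633% of all windows were called. All 8 were lower in sons, against 0.0594% of all windows lower and 0.00381% higher in sons. The median difference over the 514 windows was -1.81 points between sires and dams and -1.0 between sons and daughters, and the medians over all windows were 0.80 and 0.15. Of the 514, 369 were lower in sires than in dams and 353 lower in sons than in daughters, against 35.2% and 46.5% of all windows. Of the 369, 186 were among the 219 windows of Cyp7b1. Elsewhere, windows lower in sires were 17 of 20 in Hsd3b2, 22 of 29 in Hsd3b3, 14 of 18 in Hsd3b5 and 50 of 66 in Srd5a1. They were 8 of 15 in Hsd3b1, 9 of 19 in Hsd3b6, 23 of 46 in Hsd3b7 and 40 of 82 in Hsd11b1. With the Hsd3b5 interval extended to 5 kb upstream of its RefSeq start, a choice made after seeing the data, 530 windows were tested, and 17 and 13 were called.

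**Figure D1:**
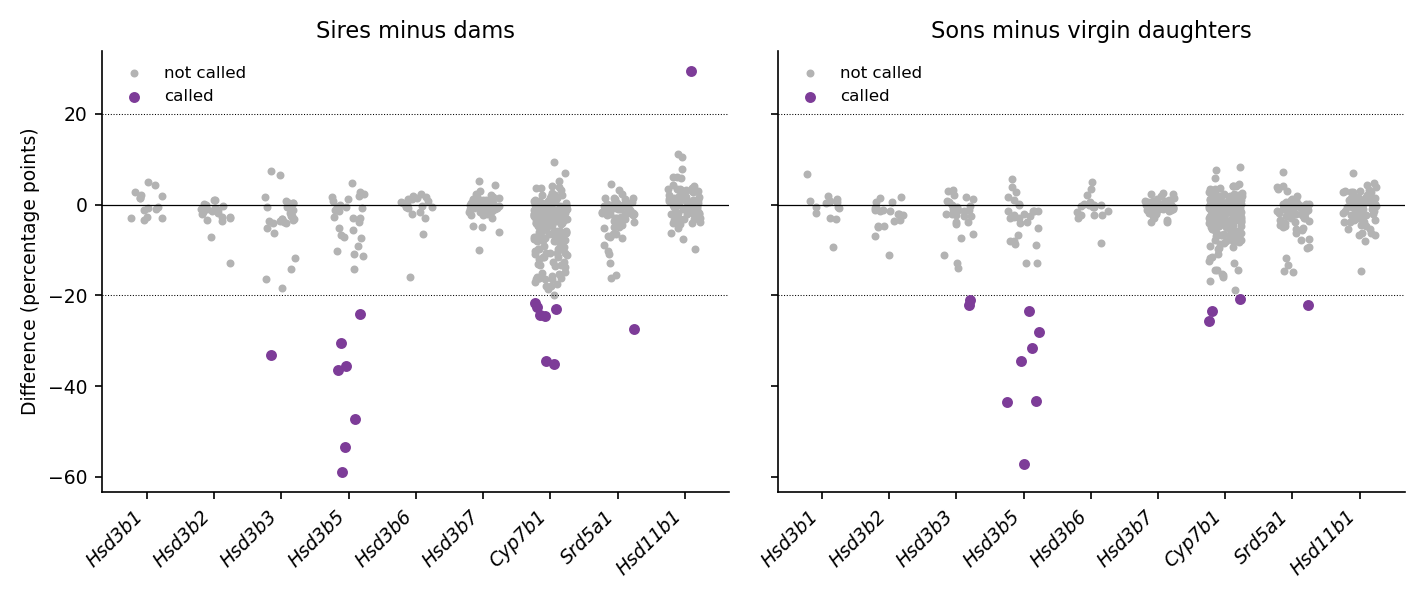
Difference in methylation of each tested window (percentage points, vertical axis) by gene, for sires minus dams (left) and sons minus virgin daughters (right), with 6 animals on each side. Purple points are called windows, grey points are not called and dotted lines mark 20 points; the Hsd3b5 points include the extension to its RefSeq start, and the called points lie below zero except 1 of Hsd11b1 in the parents.

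The region around the RefSeq start of Hsd3b5 had the lowest methylation of males relative to females among the members. Called windows joined into 1 region of 3000 bp with 14 CpGs, chr3:98448001-98451000, with 290 to 481 reads per animal. In B6 sires its methylation was 25.2, 24.6 and 24.5%, and in C3 sires 18.5, 18.5 and 18.9%. It was 58, 58.8 and 60.5% in B6 dams and 57.5, 48.6 and 56.5% in C3 dams. Every sire was thus below every dam, with means of 21.7% ± 3.36 (SD, n = 6) and 56.7% ± 4.16.

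The offspring separated by sex in the same way at this region. B6C3F1 sons were at 19.5, 24.5 and 21.2% and C3B6F1 sons at 29.1, 22.6 and 24.3%. B6C3F1 daughters were at 54, 57.6 and 55.4% and C3B6F1 daughters at 50.5, 63.3 and 58.3%. The means were 23.5% ± 3.33 in sons and 56.5% ± 4.33 in daughters (SD, n = 6), with no overlap.

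Of the 5 called windows in the region, that at chr3:98448001 differed most, with 27.5% ± 7.02 in sires and 86.5% ± 11.9 in dams, a difference of -59.0 points (log2 ratio -4.27 ± 0.33 SE, limma adjusted p = 9.2e-09). Between sons and daughters it was -57.2 points (adjusted p = 8e-08). The window just upstream of the RefSeq start, at chr3:98449501, had a lowest, median and highest value of 2.63, 12.6 and 18.8% in sires and 54.7, 66 and 77.8% in dams. It differed by -53.3 points (adjusted p = 9.3e-08), and by -43.6 points in the offspring (adjusted p = 1.39e-05). The 3 other windows differed by -47.2, -36.5 and -30.6 points in the parents and by -43.4, -34.4 and -31.6 points in the offspring. Each window rested on 2 or 3 CpGs with 32 to 122 reads per animal.

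The difference was not uniform over the CpGs. At the CpG at position -77 from the RefSeq start, the level was 8.57% ± 5.46 in sires and 48.4% ± 11.7 in dams, and at that at position -352 it was 15.9% ± 7.59 and 82.1% ± 5.9. At position 206 it was 9.33% ± 6.08 and 65.6% ± 6.05. The 3 CpGs at positions -741 to -816 were low in both sexes, with means of 12.6 to 18.6% in sires and 13.7 to 14.8% in dams. Daughters were at 19.1 to 25.2% at these 3 CpGs and sons at 12.4 to 18%. The CpG at position -1705 was high in both sexes, at 87.4% ± 8.62 in sires and 91.1% ± 3.87 in dams. Within 500 bp on either side of the RefSeq start (4 CpGs, 85 to 145 reads), sires were at 9.61% ± 3.52, dams at 55.1% ± 6.57, sons at 12.3% ± 5.33 and daughters at 50.8% ± 3.12.

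**Figure D2:**
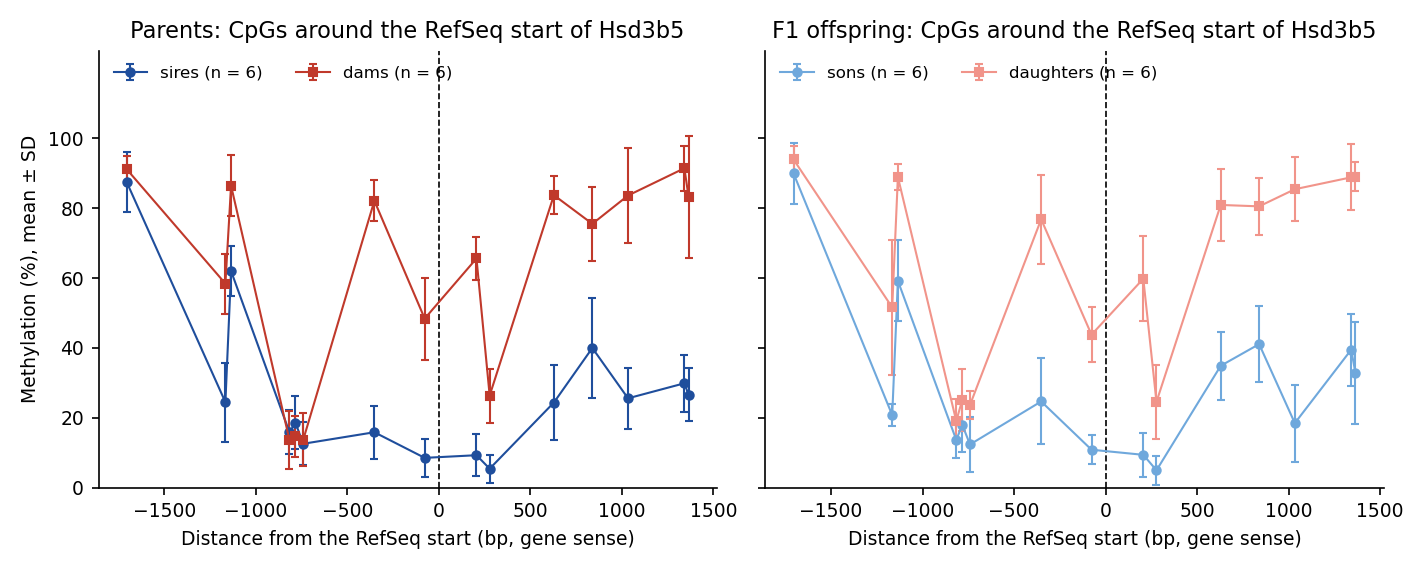
Methylation of single CpGs (%, vertical axis, mean ± SD over 6 animals) against distance from the RefSeq start of Hsd3b5 in bp, for parents (left) and F1 offspring (right). CpGs with at least 10 reads in every animal are shown; males (blue) are below females (red) at positions 1365 to -1166, except in the parents at the 3 CpGs at positions -741 to -816, where sires (12.6 to 18.6%) and dams (13.7 to 14.8%) are near each other.

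The start that GENCODE gives showed no such separation, with a median of 17.5% over the 24 animals (12.3 to 24.3%) within 500 bp on either side. Inside the GENCODE interval, an intronic window at chr3:98429501 (2 CpGs) was at 42.6% ± 7.16 in sires and 78.3% ± 6.21 in dams, a difference of -35.7 points (limma adjusted p = 9.36e-09). In the offspring it differed by -28.2 points (adjusted p = 1.8e-06). The window at chr3:98435501 differed by -24.1 points in the parents (adjusted p = 9.19e-05) and by -23.4 in the offspring (adjusted p = 0.000905), with ranges of 50 to 77.8% in sires and 89 to 98.3% in dams. The call in the offspring was lost without C3B6F1 son replicate 3, at -19.3 points.

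These Hsd3b5 windows lie in a cluster of related genes. The 4 windows from chr3:98448001 to chr3:98450000 had 1 or 2 other matches of at least 100 bases in mm9, the best with 82.4 to 89.3% identity, and the 2 GENCODE-interval windows matched at 87.4 and 85.2%. The window at chr3:98450501 had no other match. Reads from the other copies were not separated here beyond the alignment the authors made.

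Of the other Hsd3b genes in the cluster on chromosome 3, Hsd3b3 had a window that passed in both sets of animals. Hsd3b3 is a member of the family expressed in kidney and liver. Its intronic window at chr3:98556501 (4 CpGs, 58 to 128 reads) had a lowest, median and highest level of 12.2, 16.1 and 20% in sires and 37.5, 49.8 and 58.5% in dams. The sexes did not overlap, and the means of 16.1% ± 3.38 and 49.2% ± 8.01 differed by -33.1 points (log2 ratio -2.27 ± 0.25 SE, limma adjusted p = 2.88e-06). In sons it was 17.8% ± 6.41 and in daughters 39.8% ± 3.12, a difference of -22.1 points (adjusted p = 0.000812). That difference was -19.3 points, under the 20 required, with reads thinned to the shallowest animal. Part of this window is a repeat, with 3544 other matches of at least 100 bases in the genome, the best at 92.0% identity.

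A second intronic window of Hsd3b3, at chr3:98558501 (2 CpGs), was called in the offspring alone, at 16.3% ± 6.72 in sons and 37.4% ± 5.18 in daughters (-21 points, adjusted p = 0.00427). That call held in 21 of the 24 fits that each left out 1 animal, and was lost without B6C3F1 son replicate 3, B6C3F1 daughter replicate 2 or C3B6F1 daughter replicate 3, with a smallest difference of -18.6 points. In the parents it differed by -14.3 points (adjusted p = 0.106), and the test of the parents' difference against the offspring's gave an adjusted p of 0.81. The second RefSeq start of Hsd3b3, at chr3:98566333, had a median of 13.7% over the 24 animals, with a range of 6.35 to 26.8%.

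Hsd3b1, Hsd3b2 and Hsd3b6 had no called window between sires and dams, sons and daughters or B6 and C3 parents. Between sires and dams, 2 of 15, 2 of 20 and 2 of 19 windows had an unadjusted p under 0.05 with limma. Over all windows it was 379585 of 3329122. The quasi-binomial test of the counts called the same 12 member windows as limma and no other. The largest difference between sires and dams was 5.03 points for Hsd3b1 (chr3:98663501, adjusted p = 0.429), -12.9 points for Hsd3b2 (chr3:98530501, adjusted p = 0.0169) and -15.9 points for Hsd3b6 (chr3:98614001, adjusted p = 0.00429). The last 2 passed on p but were below 20 points. For Hsd3b6, sires ranged from 47 to 69.1% and dams from 69.9 to 80%, without overlap. The starts of these genes were at different levels, with a median over the 24 animals of 29.1% for Hsd3b1 (22.6 to 36.8%), 83% for Hsd3b2 (62 to 91.8%) and 68% for Hsd3b6 (61.9 to 76.1%).

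Hsd3b7, on chromosome 7, had no called window in these comparisons either. Between sires and dams, 3 of its 46 windows had an unadjusted p under 0.05 with limma, against 379585 of the 3329122 tested. Its largest difference between sires and dams was -10 points (chr7:134947001, adjusted p = 0.15), and between B6 and C3 parents 9.78 points (chr7:134945501, adjusted p = 0.0281). The GENCODE start was methylated at a median of 95.9% (94.1 to 98.4%), and the RefSeq start, at chr7:134944123, at 7.92% (2.5 to 13.9%).

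**Figure D3:**
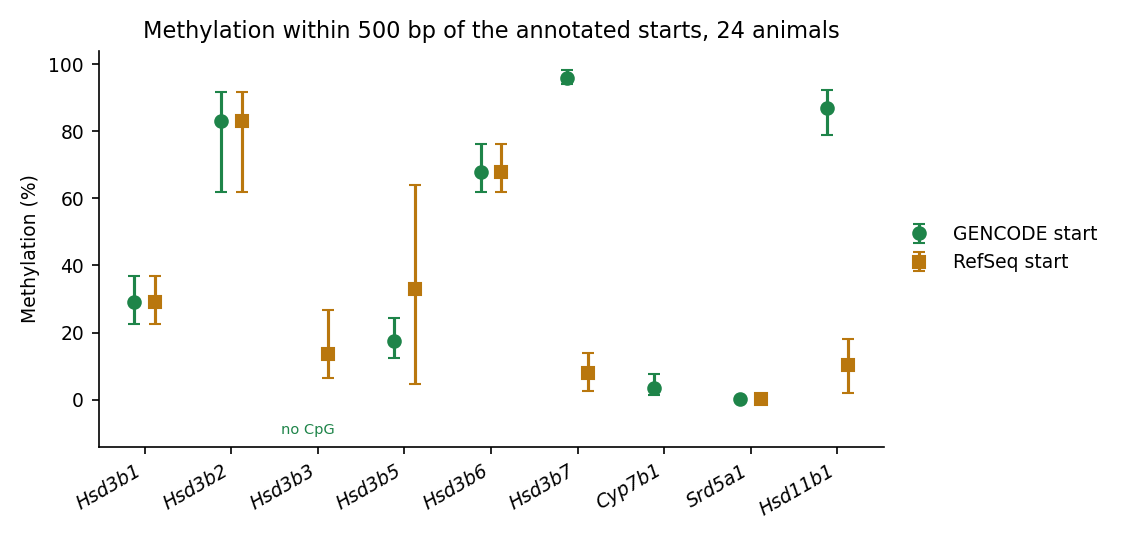
Methylation (%, vertical axis) within 500 bp on either side of each gene's start by GENCODE vM1 (green circles) and RefSeq (brown squares). Points are medians and bars run from the lowest to the highest of the 24 animals; Hsd3b5 at its RefSeq start spans the widest range, 4.71 to 63.9%, while Cyp7b1 and Srd5a1 stay at or below 7.49 and 0.57%.

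Cyp7b1 is a long gene, with 219 tested windows, and 7 of them were called between sires and dams, all lower in sires. Of the 219, 186 were lower in sires than in dams, with a median difference of -3.09 points. In the offspring 3 were called, all lower in sons, and 156 of 219 were lower in sons. The start itself, with 40 CpGs within 500 bp on either side, was low in every animal, with a median of 3.52% (1.28 to 7.49%).

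Upstream of Cyp7b1, the window at chr3:18146501 (4 CpGs, 96 to 184 reads) had a lowest, median and highest value of 19.6, 24.4 and 27.9% in sires and 32.5, 50.1 and 67.1% in dams. Every sire was below every dam, and the means of 24.3% ± 2.88 and 48.8% ± 13.1 differed by -24.5 points (limma adjusted p = 7.92e-05). Sons were at 22% ± 5.28 and daughters at 45.4% ± 12.1, a difference of -23.5 points (adjusted p = 0.000168), with the highest son at 30.4% and the lowest daughter at 30.2%. The spread among females was wide: B6 dams averaged 59.1% ± 7.18 and C3 dams 38.5% ± 7.53 (SD, n = 3). Daughters also lay apart by cross, with B6C3F1 daughters at 40.1, 37.4 and 30.2% and C3B6F1 daughters at 47.1, 63.6 and 54.2%. Over sons and daughters together the crosses differed by -10.3 points and were not called (limma adjusted p = 0.737). B6 sires were at 26.4% ± 1.34 and C3 sires at 22.1% ± 2.14. The sire-dam difference was -32.7 points in B6 (adjusted p = 0.0012) and -16.4 in C3 (adjusted p = 0.132), and the test of one against the other gave an adjusted p of 0.939. The B6 call was lost with thinned reads, at -25.3 points.

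Within the gene, called windows in an intron joined into chr3:18139001-18140500 (8 CpGs), at 51.6% ± 15.9 in sires and 79% ± 3.44 in dams. B6 sires were at 71.3, 58.6 and 60.3% and C3 sires at 26.7, 40.5 and 52.2%, while B6 dams were at 79.9, 82.3 and 80.1% and C3 dams at 76.9, 73.2 and 81.8%. The C3 sires were thus the lowest of the parents. The 3 windows of the region were called within C3 and not within B6, and the test of the B6 difference against the C3 difference gave adjusted p values of 0.964, 0.883 and 0.83. Over both strains, the window at chr3:18139501 lost its call without C3 sire replicate 1, at -18.8 points. The window at chr3:18139001 differed most in this region, by -34.6 points (log2 ratio -2.15 ± 0.28 SE, limma adjusted p = 4.43e-05). It was at 50.4% or less in every sire and at 54.9% or more in every dam. In the offspring it differed by -25.6 points (adjusted p = 0.00682), with sons at 41.5% ± 11.4 and daughters at 67.1% ± 9.35, and the ranges overlapped (27 to 56% and 51.1 to 76.9%). That call was lost with thinned reads, with its direction kept. The windows at chr3:18139501 and chr3:18140001 differed by -6.72 and -6.81 points in the offspring and were not called (adjusted p = 0.624 and 0.798). Part of the window at chr3:18140001 is a repeat with 92674 other matches of at least 100 bases, the best at 91.6% identity.

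The largest difference of Cyp7b1 between sires and dams was at chr3:18006001, an intronic window with 2 CpGs and 25 to 52 reads, at 52.9% ± 5.3 in sires and 88.1% ± 4.11 in dams (-35.2 points, adjusted p = 0.000168). In the offspring it stood at 71% ± 7.9 in sons and 87% ± 10.4 in daughters, a difference of -16.0 points that was not called. Part of that window is a repeat with 21775 other matches of at least 100 bases, the best at 99.1% identity. The 2 other called intronic windows, at chr3:18064501 and chr3:18069501, differed by -22.6 and -21.8 points, and neither has another match of that length. In the offspring they differed by -16.8 and -15.4 points and were not called. The third window called in the offspring, at chr3:18142001, was at 38.9% ± 6.15 in sons and 59.8% ± 9.14 in daughters (-20.9 points, adjusted p = 0.00344). It was just past the 20 points required and held in 19 of the 24 fits without 1 animal, with a smallest difference of -18.7 points. The calls lost were those without B6C3F1 son replicate 3, B6C3F1 daughter replicate 1, C3B6F1 son replicate 2 and C3B6F1 daughter replicates 2 and 3.

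Srd5a1 had 1 window called in both sets of animals, an intronic window at chr13:69734501 with 10 CpGs. Its lowest, median and highest values were 36.1, 46.1 and 52.2% in sires and 68.8, 70.7 and 78.8% in dams. Sires were all below dams, with means of 44.8% ± 6.4 and 72.3% ± 3.7, a difference of -27.5 points (log2 ratio -1.66 ± 0.17 SE, limma adjusted p = 1.66e-06). Sons and daughters were at 45.1% ± 4.59 and 67.3% ± 4.1 (-22.2 points, adjusted p = 0.000136), again without overlap. B6 parents had 26.1 reads per CpG here and C3 parents 8.17. The window held 2 single nucleotide variants (SNVs) that the authors listed for B6 or C3 against mm9. The difference was -22.7 points within B6 (adjusted p = 0.00949) and -32.3 within C3 (adjusted p = 8.04e-05). The B6 call was lost with thinned reads, at -22.6 points, and without B6 sire replicate 3 or B6 dam replicate 1. The gene body of Nsun2, on the opposite strand, overlaps this window. The start of Srd5a1, with 68 CpGs, was at a median of 0.241% (0 to 0.57%).

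Hsd11b1 was the one member with a called window higher in sires than in dams. The window at chr1:195077501 (7 CpGs, 72 to 243 reads) was at 41.4, 39.9 and 49.6% in B6 sires and 72.7, 68.4 and 65.9% in C3 sires. It was at 19, 21.4 and 21% in B6 dams and 25, 24.3 and 50% in C3 dams. Within each strain every sire was above every dam, while over both strains the highest dam (50%) lay above the B6 sires. The means of 56.3% ± 14.4 and 26.8% ± 11.6 (SD, n = 6) differed by 29.5 points (limma adjusted p = 4.07e-06). The difference was 23.2 points in B6 (adjusted p = 0.0169) and 35.9 in C3 (adjusted p = 0.000179). The B6 call was lost with thinned reads, at 20.9 points, and without B6 sire replicate 3 or any 1 of the B6 dams.

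This window is intronic by GENCODE, which starts Hsd11b1 at chr1:195090248 on the minus strand, and lies upstream of the RefSeq start at chr1:195068554. Methylation within 500 bp on either side had a median of 87% over the 24 animals at the GENCODE start (78.8 to 92.4%) and of 10.2% at the RefSeq start (1.91 to 18.1%).

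In the offspring the sexes lay together at this window. Sons were at 46.9% ± 4.47 and daughters at 46.1% ± 6.29, a difference of 0.845 points (adjusted p = 0.99). The sire-dam difference exceeded the son-daughter difference by 28.7 points (adjusted p = 0.0168), and it was the only 1 of the 514 member windows called in that test, where 0.0111% of all windows were called. With reads thinned to the shallowest animal the value was 29.8 points and the adjusted p 0.063. With all reads, 365 windows over the genome were called in the direction of this one and 5 in the other. Dams were lower than virgin daughters by 19.3 points (adjusted p = 0.00646), just under the 20 points required, and by 23.5 points without C3 dam replicate 3, the dam at 50%. Over the genome, 567 windows were called lower in dams than in daughters and 20 higher. C3 parents had 17 reads per CpG here and B6 parents 26.2. A processed transcript on the opposite strand, 1600010F14Rik, overlaps the window.

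**Figure D4:**
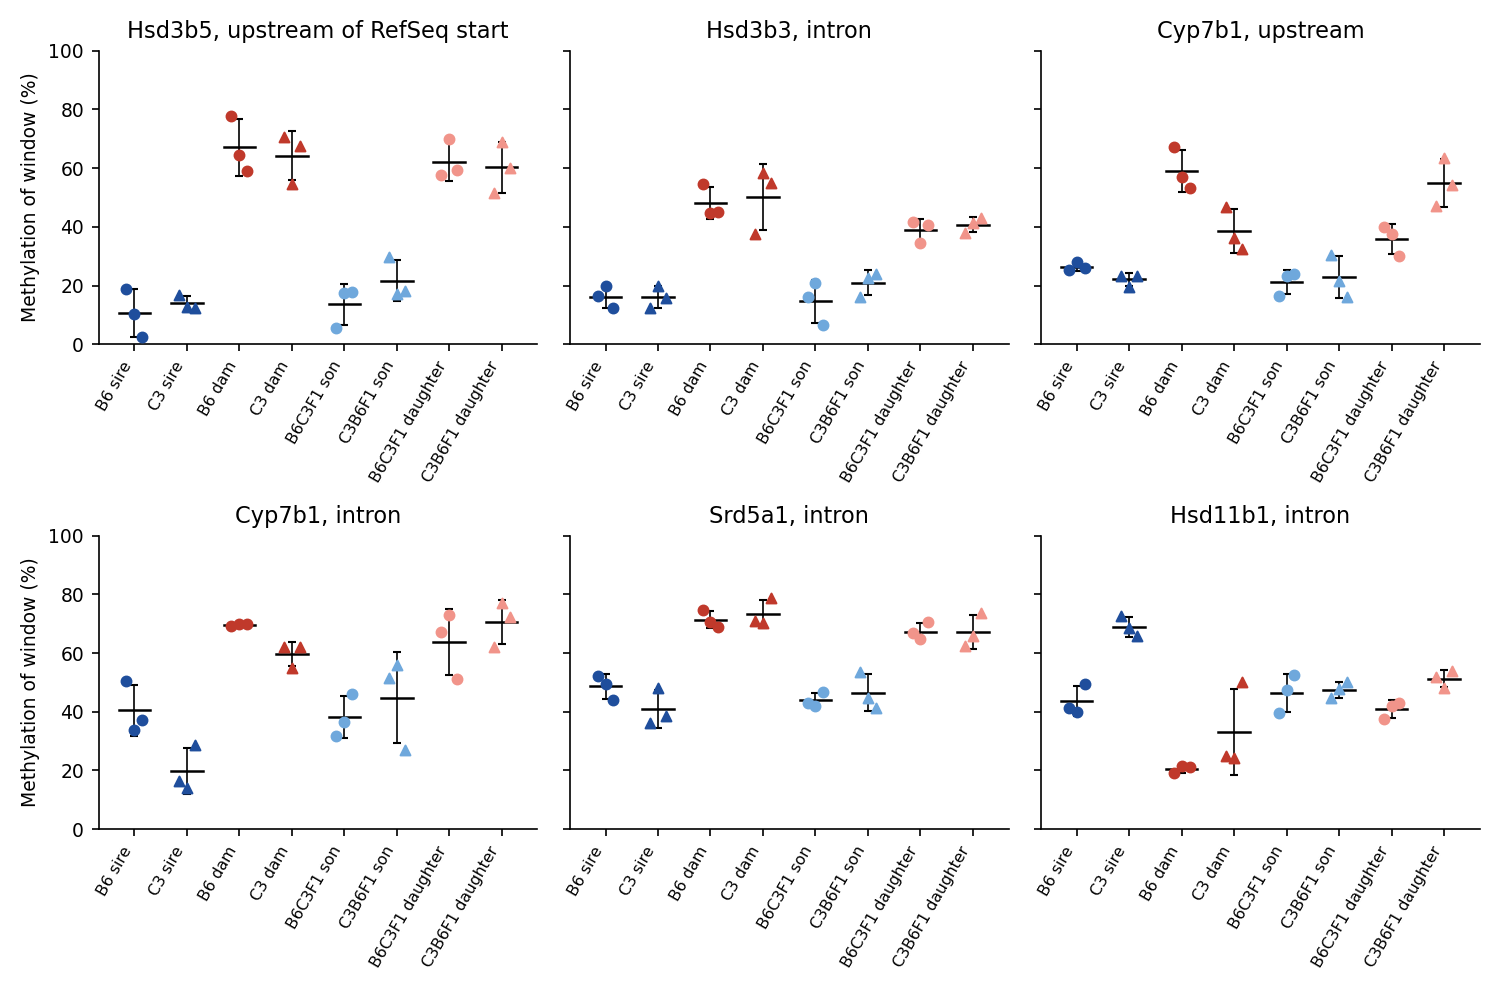
Methylation (%, vertical axis) of 6 windows in each of the 24 animals by group (horizontal axis). Circles are B6 or B6C3F1 and triangles C3 or C3B6F1, and bars give the mean and SD of each group (n = 3); males (blue) are below females (red) in the first 5 panels, apart from a small overlap in the F1 offspring for both Cyp7b1 windows, and in the Hsd11b1 panel sires are above dams within each strain while sons and daughters lie together.

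Windows called between sires and dams can be followed in the offspring, which share no animal with them. Of the 11 member windows lower in sires, 11 were lower in sons than in daughters and 6 were called there. Over all windows, 2887 of the 2889 lower in sires kept that direction in the offspring (99.9%), and 55.8% were called. The share of members called again is thus near that of all windows. Of the 1060 windows higher in sires over the genome, 78.7% kept the direction and 10.4% were called again; the Hsd11b1 window kept the sign but was not called.

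Within the strains, 9 member windows were called between B6 sires and B6 dams (4 with thinned reads), where 0.0946% of all windows were called, and 17 between C3 sires and C3 dams (29 without C3 sire replicate 3), where 0.158% were. In each strain 1 window was higher in sires, that of Hsd11b1, where 0.0307% of all windows were higher in B6 sires and 0.0475% in C3 sires. The other 8 and 16 were lower in sires, where 0.0639% and 0.111% of all windows were lower. Of the C3 windows, 11 were in Cyp7b1, with differences from -20.2 to -40.0 points. Those at chr3:18010001, chr3:18012501 and chr3:18041001, which differed by -20.2, -21.8 and -20.5 points, were lost with thinned reads and held in 21, 19 and 21 of the 24 fits without 1 animal, with smallest differences of -16.6, -17 and -17.8 points. The call at chr3:18012501 was also lost in the quasi-binomial test. Each of the 3 was lost without C3 sire replicate 1 and without C3 dam replicate 1, among other animals of that strain. Those at chr3:18006001, chr3:18069501 and chr3:18106501 held in 22, 23 and 23 of these fits. The second window of Srd5a1, at chr13:69741001, also in the gene body of Nsun2, was called there as well (-27.6 points, adjusted p = 0.00467). No member window was called in the test of the B6 difference against the C3 difference (limma), where 0.0003% of all windows were called. An unadjusted p under 0.05 was found at 46 of 514, against 176777 of the 3329122 windows tested, and a quasi-binomial test of the counts also called 0.

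B6 and C3 parents were compared next, sires and dams together. Of the 514 windows, 9 were called (1.75%), where 0.469% of all windows were called. In B6, 5 were higher and 4 lower, against 0.242% and 0.226% of all windows. The median difference was -0.82 points, against -0.76 over all windows. The calls were in 3 genes, 4 in Srd5a1, 3 in Cyp7b1 and 2 in Hsd11b1, and all were intronic by GENCODE. Among the members without a call, Hsd3b3 differed most, by 17.4 points at chr3:98562501 (limma adjusted p = 3.12e-05). B6 parents were at 22.6 to 39.7% there and C3 parents at 7.79 to 15.9%, without overlap. The difference was below the 20 points required. In the Hsd3b5 extension, chr3:98448001 differed by 12.8 points (adjusted p = 0.0287). The largest differences in Hsd3b1, Hsd3b2 and Hsd3b6 were -5.65, -7.15 and -6.34 points. The gene intervals of Hsd3b2, Hsd3b3, Hsd3b5 and Hsd3b6 held 0 listed SNVs, that of Hsd3b1 1 and that of Hsd3b7 2. Those of Cyp7b1, Srd5a1 and Hsd11b1 held 247, 201 and 90. SNVs were counted as listed, without a check that B6 and C3 differ at each. Whether their number bears on the calls was not tested.

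The largest strain difference was in Srd5a1, at chr13:69715501 (9 CpGs), with 71.4% ± 2.94 in B6 and 21.5% ± 8.24 in C3 parents (SD, n = 6). The difference of 49.9 points (log2 ratio 3.25 ± 0.25 SE, limma adjusted p = 1.03e-09) ran through all 9 CpGs, where B6 means lay between 52.6 and 84.4% and C3 means between 14.2 and 30.8%. The 3 other Srd5a1 windows called differed, by 21.5 points at chr13:69721501, -21.5 at chr13:69740001 and -26.7 at chr13:69742501. The first of these was at 18.2 points and not called without C3 dam replicate 3. The Srd5a1 interval held 201 SNVs, or 4.57 per kb, and C3 parents had 18.1 reads per CpG there against 28.2 in B6. All 4 windows also overlap the gene body of Nsun2. At chr13:69715501, 3 SNVs lay in the window and the CpGs were 1 to 94 bp from the nearest.

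In Cyp7b1, B6 was lower than C3 at chr3:18019501, with 52% ± 5.41 against 81.1% ± 8.5 (-29.1 points, adjusted p = 1.19e-07). At chr3:18035501 it was lower by 25.1 points (adjusted p = 2.1e-06), in a window that is in part a repeat with 9176 other matches of at least 100 bases. At chr3:18040001 it was higher, with 49% ± 15.5 against 28.6% ± 8.72 (20.4 points, adjusted p = 0.0239), and there the strains overlapped. This call held in 19 of the 24 fits without 1 animal and was lost without B6 sire replicate 3, B6 dam replicate 2 or 3, or C3 dam replicate 1 or 3, down to 18.6 points.

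In Hsd11b1, the window at chr1:195053001 was at 32.4% ± 3.67 in B6 and 10.1% ± 2.31 in C3 (22.4 points, adjusted p = 3.04e-07), with B6 above C3 at each of its 4 CpGs. The window at chr1:195079501, also upstream of the RefSeq start, was at 86.5% ± 2.35 in B6 and 56.4% ± 9.52 in C3 (30.1 points, adjusted p = 2.99e-07). There the difference was carried by 1 of 4 CpGs, at chr1:195079650, with 94.3% ± 4.49 in B6 and 5% ± 12.2 in C3. The other 3 were at 75.3, 93.6 and 82.2% in B6 and 85.4, 89.3 and 74.3% in C3. C3 parents had 6.54 reads per CpG in this window and B6 parents 38.8. Whether an undetected variant or lost C3 reads entered the value at chr1:195079650 was not tested. Both Hsd11b1 windows also overlap 1600010F14Rik.

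The F1 offspring lay mostly between the parental strains at these 9 windows. At chr13:69715501 the 12 offspring were at 53.2% ± 6.37, and all 12 lay between the parental means. The 12 offspring were also between them at 4 other windows, 10 or 11 of 12 at 3 windows, and 3 of 12 at chr3:18040001. The mean of the offspring differed from the midpoint of the parental means by -3.3 to 9.45 points, with the largest gap at chr1:195079501, where the offspring were at 80.9% ± 5.15.

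**Figure D5:**
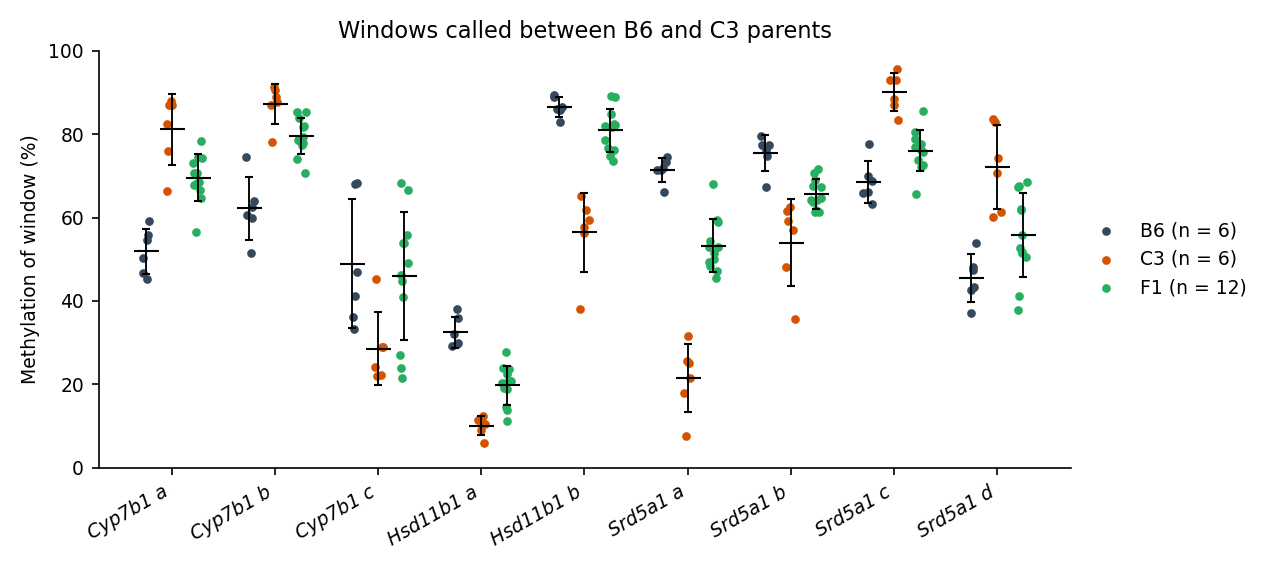
Methylation (%, vertical axis) of the 9 windows called between B6 and C3 parents, in B6 parents (n = 6), C3 parents (n = 6) and F1 offspring (n = 12). Letters order the windows of a gene by mm9 position, points are animals and bars give the mean and SD; the parents are farthest apart at the first Srd5a1 window, 71.4 against 21.5%, with the offspring at 53.2%.

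The remaining comparisons called 0 member windows with limma. Between B6C3F1 and C3B6F1 offspring, which differ in the strain of the dam, 30 of the 514 had an unadjusted p under 0.05, against 202559 of the 3329122 windows tested, and 0.00024% of all windows were called. Between dams and virgin daughters 50 had such a p, against 240088, and 0.0176% of all windows were called. Between sires and sons 48 had such a p, against 206239, and 0.00111% were called. The quasi-binomial test of the counts also called 0 in these 3 comparisons. The dams had been mated and had nursed, but they also differ from the daughters in being inbred, and these cannot be told apart.

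Other genes of steroid and bile acid metabolism were examined in the same way. Of a list of 41 genes, 37 had a tested window, with 2019 windows in all. Between sires and dams 5 windows were called (0.248%, against 0.119% of all windows), 1 higher and 4 lower in sires, and the median difference was -0.03 points. The largest were in Cyp17a1, which encodes a hydroxylase and lyase of androgen synthesis, with 23.7 points (limma adjusted p = 1.66e-05), in Akr1c19, which encodes an aldo-keto reductase (-23.4 points, adjusted p = 0.000631), and in Cyp8b1, the sterol hydroxylase of cholic acid synthesis (-23.1 points, adjusted p = 0.00226). Between sons and daughters 2 windows were called (0.0991%, against 0.0633%), in Hsd17b12 (-25.5 points) and in the same window of Akr1c19 (-21.2 points). Between B6 and C3 parents 18 were called (0.892%, against 0.469%) in 8 genes, with the largest in Hsd17b4 (-54.2 points), Cyp39a1 (-44.5 points) and Hsd17b13 (43.1 points).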

How the data were processed

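The authors sequenced bisulfite-treated liver DNA of 24 mice and deposited, for each CpG and animal, the counts of methylated and unmethylated reads. Reads were aligned to mm9 with Bismark 0.7.8 and Bowtie 0.12.8, duplicates were removed, and CpGs were kept where the CpG context held in mm9, B6 and C3. CpGs altered by a variant in the assembled B6 or C3 genome are thus absent. A variant missed there may remain, since the authors' check of the reads allowed some discordant bases. Reads carrying variants may align less often. All deposited sample columns were mapped to a labelled animal (8 groups, 3 animals per group), so 0 columns were left out. Libraries of FOXA1 chromatin immunoprecipitation and input were not analysed here.

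Counts were summed in 500-bp windows. Autosomal windows with at least 2 CpGs and 20 reads in all animals were fitted on log2((methylated + 1)/(unmethylated + 1)) with limma 3.58.1 in R 4.3.3 (8 group means, trended variances), and contrasts were adjusted by Benjamini-Hochberg over all windows. The fit was tested on simulated data. The authors' own region callers were not run. Depth per animal is given with the data, and intervals of 500 bp with few reads have wide counting error, which the spread between animals includes. P-values rest on 1 spread per window, pooled over the 8 groups of 3 animals and drawn toward the trend over all windows. They do not measure the spread of the compared groups alone. Alternatives were pseudocount, scale, CpG and read minimums, difference threshold, robust variances, a quasi-binomial test, shifted windows, CpGs within 10 bp of an SNV left out, thinned reads, a replicate block and leaving out each animal.

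The members, the pathway list, the marker lists and the motifs were chosen with earlier results of these data known. Between sires and dams, the called window of each member with the largest difference was named, or the largest uncalled one with the start region. In the other comparisons not every largest uncalled window was named. Called windows at most 1000 bp apart were joined. Single CpGs and further called windows were named after their values were seen. Genes were placed with GENCODE vM1, and RefSeq starts (GRCm38.p6 promoters) by exact match to mm9. Other copies were sought with blastn 2.17.0 at 100 bases or more. The sequence of 1 stretch is not reported here.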

Additional observations from a re-analysis of the deposited data

Results flagged for a closer look

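The Hsd11b1 window at chr1:195077501 stood out because the sire-dam difference exceeded the son-daughter difference by 28.7 points (limma adjusted p = 0.0168 with Benjamini-Hochberg adjustment). Sires were at 56.3% ± 14.4 and dams at 26.8% ± 11.6, while sons were at 46.9% ± 4.47 and daughters at 46.1% ± 6.29 (SD, n = 6). Of the 12 parents and 12 offspring, C3 dam replicate 3, at 50%, lay apart from the other 2 C3 dams, at 25 and 24.3%. Without that dam the difference was 32.9 points. Over the alternatives tried, the adjusted p ran from 1.2e-06 to 0.063. Whether this dam lay outside the spread of its group was not tested.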

How the results depend on the processing

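Of 2558 values of the called windows under the alternatives, 2482 were still called, 76 kept their direction but were no longer called, and 0 reversed. Windows that an alternative left untested are not among these values, so they do not count as lost. Most values come from fits without 1 animal, and the threshold of 10 points could not lose a call. Extending Hsd3b5 to its RefSeq start gave 14 calls between B6 sires and dams and 13 between sons and daughters. At least 5 CpGs and 30 reads left 4 calls between the strains, 3 between sires and dams, 5 within B6, 5 within C3 and 1 between sons and daughters, since fewer windows were tested. A minimum of 50 reads left 5 between the strains. A threshold of 10 points gave 31 between the strains, 47 between sires and dams, 31 within C3, 19 between sons and daughters and 1 between dams and daughters. Counts under other settings have no share of all windows beside them, since that share was given for the main setting alone. Between sires and dams, 21181 of all windows had a limma adjusted p under 0.05, of which 3949 reached 20 points. Windows shifted by 250 bp gave 1 between dams and daughters, and their windows could not be matched to those named. Thinned reads gave 4 within B6, 5 between sons and daughters, 1 between dams and daughters, and 0 for the sire-dam against the son-daughter difference, and the cause was not tested.

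Leaving out 1 animal at a time gave 8 to 10 calls between the strains, 11 to 15 between sires and dams, 6 to 11 within B6, 14 to 29 within C3 (29 without C3 sire replicate 3), 6 to 9 between sons and daughters, 0 to 1 between dams and daughters, 0 to 0 between sires and sons, 0 to 0 between the reciprocal crosses, 1 to 1 for the sire-dam against the son-daughter difference and 0 to 0 for the B6 against the C3 difference. The window of Hsd3b5 at chr3:98450501 kept its call within B6 in 6 of the 24 such fits. The deviations of animals with the same replicate number had correlations of -0.009 to 0.061, all under 0.1. Counting error lowers such correlations, so they cannot decide whether the numbers pair the animals. The sample labels do not say which family a number belongs to, and the numbers were not taken to pair the animals. In some pairs of groups, though not in all, each animal correlated best with its own number. C3B6F1 sons and daughters were among them, with correlations of 0.0614, 0.0167 and 0.0228. The study took a sire, dam, son and daughter from each family, but the link of number to family is only a hint from the data. With the replicate number as a block, the counts of calls were 9, 12, 9, 17, 8, 0, 0, 0, 1 and 0, in the order of strain, sires and dams, B6, C3, sons and daughters, dams and daughters, sires and sons, reciprocal crosses, and the tests of generation and strain.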
